A study of Mus musculus with 18 samples.

Results

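Fos, Fosb, Jun, Junb, Jund, Egr1, Atf3, Ier2, Ier3 and Klf6 are transcription factors and related proteins whose mRNA rises quickly, without new protein synthesis, when a cell meets a growth signal, a cytokine or stress. These 10 genes were taken by symbol from the 54532 genes of the deposited expression table. The liver RNA of 18 mice was sequenced, in 3 groups of 6. All mice were males of the strain C57BL/6 (C57BL/6J in the study's methods) that arrived at 6 weeks of age and were fasted overnight before euthanasia. The normal control group (NC) received standard chow without SZ-A. The HFD group received a high-fat diet for 14 weeks and then, on the same diet, saline. The SZ-A group received the high-fat diet for 14 weeks and then SZ-A on that diet. SZ-A is the alkaloid fraction of Ramulus Mori, the twig of mulberry, and holds 1-deoxynojirimycin, fagomine and DAB, small sugar mimics that inhibit glucosidases. The deposited description gives 8 weeks of treatment and the methods of the study give 6, and no dose or route is named for the sequenced SZ-A mice. One NC mouse, NC6, has a diet label that names the high-fat diet while its title says CHOW. It was analysed as NC, and calls without it are given beside the first comparison.

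Immediate early genes are switched on by factors that already sit in the cell. Serum response factor with its ternary complex partners, phosphorylated by MAP kinases, acts on Fos and Egr1. Jun with ATF2, phosphorylated by the stress kinases JNK and p38, acts on Jun. Fos and Jun proteins pair to form AP-1, which binds TGANTCA, and pairs with ATF proteins bind the longer TGACGTCA. In liver these genes are known for their rise after partial hepatectomy, in inflammation and with lipotoxic stress. Their mRNAs are short-lived, so a liver sampled at one moment holds what its last hours left.

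The sequences before the start sites of Jun, Klf6 and Fos are shown because they hold TGACNTCA or TGACGT, letters close to the ATF site, outside annotated exons. RefSeq promoters (GRCm38.p6) matched 8 of the 10 members, all but Egr1 and Ier2, and the 250 bases before each start were searched on both strands. Capitals mark TGACNTCA, TGACGT and TATAAA. The search ran over all 250 bases, and bases annotated as exon were left out of the stretches printed. The Jun stretch lies at chr4:95052223-95052472 on the minus strand, the Klf6 stretch at chr13:5861239-5861481 on the plus strand and the Fos stretch at chr12:85473640-85473889 on the plus strand, each written 5′ to 3′.
Jun: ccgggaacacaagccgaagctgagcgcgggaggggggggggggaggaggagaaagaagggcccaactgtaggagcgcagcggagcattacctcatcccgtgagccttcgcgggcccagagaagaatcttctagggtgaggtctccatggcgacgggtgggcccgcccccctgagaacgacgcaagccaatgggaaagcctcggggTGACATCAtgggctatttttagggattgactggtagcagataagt
Klf6: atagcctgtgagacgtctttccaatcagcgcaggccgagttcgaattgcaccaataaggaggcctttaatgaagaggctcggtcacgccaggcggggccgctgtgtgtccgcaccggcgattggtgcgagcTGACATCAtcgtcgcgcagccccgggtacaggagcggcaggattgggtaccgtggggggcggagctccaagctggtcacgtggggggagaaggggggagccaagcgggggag
Fos: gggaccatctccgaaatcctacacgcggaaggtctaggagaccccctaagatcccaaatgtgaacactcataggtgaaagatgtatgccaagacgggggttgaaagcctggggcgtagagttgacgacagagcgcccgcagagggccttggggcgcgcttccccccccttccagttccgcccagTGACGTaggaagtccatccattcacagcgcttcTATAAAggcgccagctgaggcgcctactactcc

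TGACNTCA stood at -45 to -38 from the start of Jun and at -119 to -112 from that of Klf6, and 7.49% of the 32851 promoters in the table hold it. TGACGT stood at -66 to -61 in Fos and, on the other strand, at -8 to -3 in Atf3, mostly within an annotated exon of that gene, and 6.47% of promoters hold it. Fos also held TATAAA at -33 to -28, as 12.4% of promoters do. The zinc finger motif GCGNGGGCG, which EGR proteins bind, stood at -50 to -42 in Fosb and is held by 4.7% of promoters. The full ATF site TGACGTCA (1.55% of promoters), the AP-1 site TGANTCA (6.75%) and the CArG box of serum response factor (1.47%) had no match in these windows of the 8 members. The Jund window, chr8:70697489-70697738, ended upstream of the start that the expression table lists for Jund, 70698949. The Atf3 window, chr1:191183334-191183583, lay inside the listed span of Atf3, whose 5′ end is at 191218039. Atf3 positions are thus counted from that RefSeq start, and sites before the listed starts of these 2 genes were not searched. TGACNTCA and TGACGT were added to the search after the sequences had been seen, and TGACGTCA contains both. A match describes letters, and the data hold no measure of binding.

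Levels are FPKM, the fragment number that the authors divided by gene length and by library size. Fragments on genes numbered 17163191 to 20493907 per mouse, mitochondrial genes took 3.14% to 4.87% of them, and no mouse was a duplicate of another in its group. Of the 10 members, 9 reached a mean of 1 FPKM over the 18 mice, as did 10216 genes, and these were tested. Fosb, with a mean of 0.107 FPKM, did not reach it. Fos, Atf3 and Ier3 had NC means below 1 FPKM and passed through the higher values of the other groups. Each difference below is one of mean log2(FPKM + 0.1), so changes of genes near 0.1 FPKM come out too small. A gene was called at a Benjamini-Hochberg adjusted p from limma under 0.05, adjusted over all genes tested, with a fold change over 1.2.

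**Figure D1:**
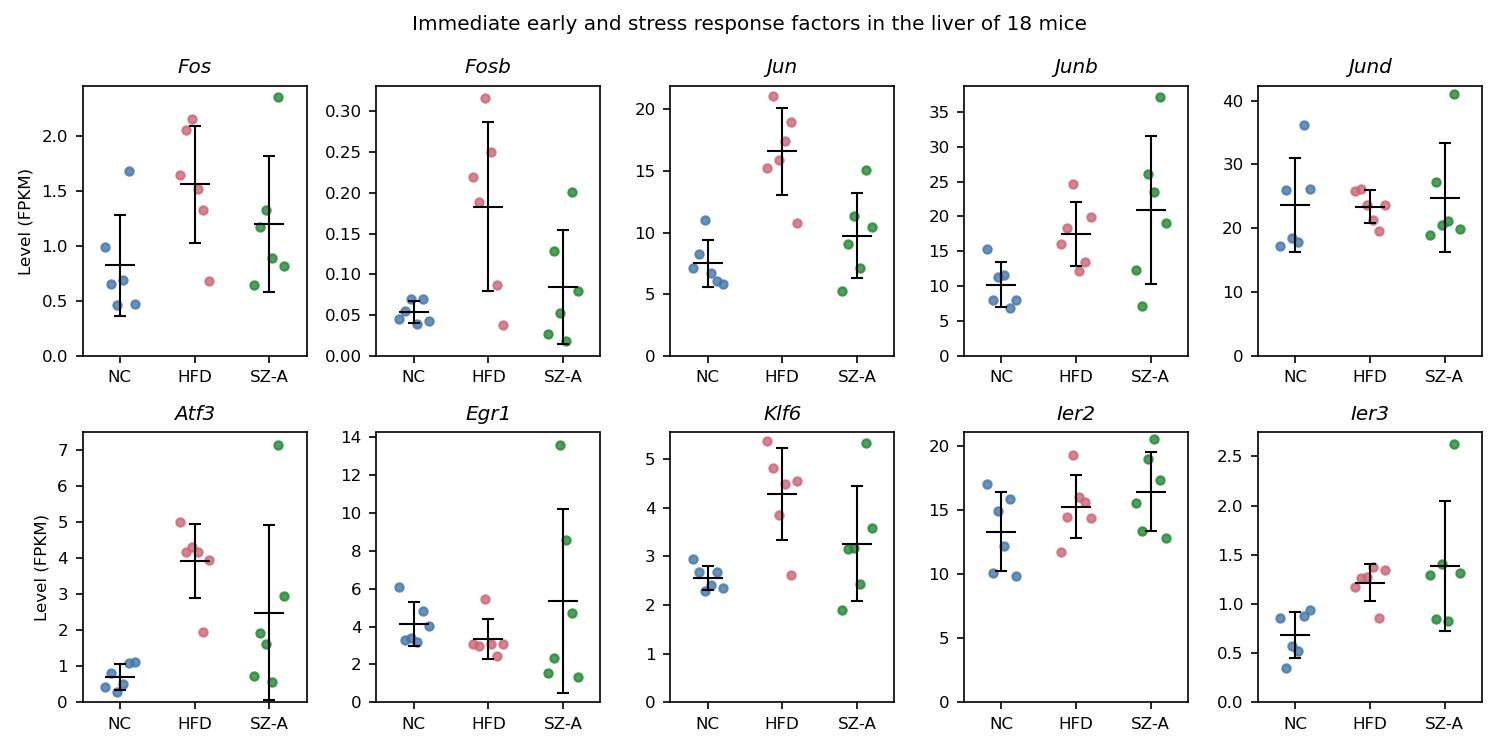
Level of each of the 10 members in FPKM (vertical axis, linear, from 0) in the liver of each mouse (points) by group (horizontal axis), with the group mean and SD as bars (n = 6 each). Atf3 in the 6 HFD mice lies between 1.95 and 5.01 FPKM, above all NC mice, and the mouse SZ-A5 is the highest point of its group in most panels.

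HFD livers held more mRNA of 5 of the 9 tested members than NC livers. Atf3, Jun, Klf6, Ier3 and Junb were called, all higher in HFD, while none was called lower. Of these, Atf3 and Ier3 had NC means below 1 FPKM and passed the filter through the values of the other groups. With all genes kept, 4 members were called, Atf3 and Ier3 among them. Among all genes tested, 20.2% were called in this comparison, 10.7% as higher and 9.49% as lower in HFD. The median difference over the 9 members was 0.78 on the log2 scale, against -0.03 over all genes. Of the 9 members 6 had an unadjusted limma p under 0.05, as did 34.8% of all genes. With the mouse NC6 left out, the same 5 were called. When each mouse's FPKM were scaled to the same sum, the median of all genes went from -0.03 to 0.15, and 86.3% of calls over all genes were higher in HFD in place of 53.0%. The same 5 members and Fos were then called, and relative to the median Atf3 differed by 2.43 under both scalings and Jun by 1.17 under both.

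Atf3, a repressor and activator of the CREB family that is induced by many kinds of cell stress, had the largest difference among the members. Its gene (ENSMUSG00000026628) lies at chr1:191170296-191218039 on the minus strand. Atf3 read 0.278, 0.665 and 1.13 FPKM as the lowest, median and highest NC mouse, and 1.95, 4.18 and 5.01 FPKM in HFD. All 6 HFD mice lay above all 6 NC mice, which held for no other tested member, and across all genes 5.48% showed HFD wholly above NC. The log2 difference was 2.40 (SE 0.30, limma adjusted p = 0.000247), a 5.26-fold rise with a 95% interval of 3.34 to 8.29. Atf3 rested on 11 to 46 fragments per mouse in NC and 78 to 228 in HFD. It was called in all 21 alternatives, with a difference of 1.52 to 2.68.

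Of the genes of the Jun proteins, which pair in AP-1 dimers, Jun and Junb mRNA rose and Jund did not pass the test. Jun (ENSMUSG00000052684, chr4:95049034-95052222, minus strand), the main transactivating member, read 5.86, 6.91 and 11.01 FPKM (lowest, median, highest) in NC and 10.8, 16.6 and 21.1 FPKM in HFD. The lowest HFD mouse fell just under the highest NC mouse, and the other 5 lay above all NC mice. The log2 difference of Jun was 1.14 (SE 0.17, limma adjusted p = 0.00077), or 2.20-fold with an interval of 1.69 to 2.85. Junb (ENSMUSG00000052837, chr8:84974484-84978718, minus strand), which often restrains Jun, read 6.82, 9.71 and 15.4 FPKM in NC and 12.1, 17.2 and 24.7 FPKM in HFD, with 4 HFD mice above all NC mice. Junb differed by 0.78 (SE 0.21, limma adjusted p = 0.0185). With all genes kept the adjusted p of Junb was 0.0612, and with all 18 mice in a single fit 0.0752, neither a call.

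Jund (ENSMUSG00000071076, chr8:70698949-70700616, plus strand), the Jun protein that most tissues hold at rest, was the most abundant member per length. Mean Jund was 23.6 ± 7.37 FPKM for NC, 23.4 ± 2.58 for HFD and 24.8 ± 8.49 for SZ-A (SD, n = 6 each). HFD and NC overlapped wholly in Jund, with a log2 difference of 0.03 and a 95% interval of -0.33 to 0.39. Of its exon bases, 52.6% are shared with Gm11175 on the opposite strand, which the table lists at 0 in all mice. Jun shares 7.28% of its exon bases with Junos and Junb 7.52% with the end of Prdx2, both on the opposite strand. Junos averaged 0.104, 0.111 and 0.0913 FPKM in NC, HFD and SZ-A, and Prdx2, a peroxidase, 35.3, 37.5 and 37.8 FPKM. Whether the counting used strand is not given in the sources used here.

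The mRNAs of Fos and Fosb, whose proteins pair with Jun proteins to bind DNA, were low in all groups. Fos (ENSMUSG00000021250, chr12:85473890-85477273, plus strand) read 0.463, 0.676 and 1.68 FPKM in NC and 0.686, 1.58 and 2.15 FPKM in HFD, from 20 to 111 fragments per mouse. The groups overlapped, with 2 HFD mice above all NC mice. The log2 difference of Fos, 0.89 (SE 0.31), missed the threshold with a limma adjusted p of 0.0577, and it passed in 5 of 21 alternatives, whose adjusted p ran from 0.00294 to 0.143. Leaving out NC5, the highest NC mouse, gave 1.11 and leaving out HFD6, the lowest HFD mouse, gave 1.09, both calls. Fosb (ENSMUSG00000003545, chr7:19302696-19310051, minus strand) averaged 0.0536 ± 0.0134 FPKM in NC and 0.183 ± 0.104 in HFD (SD, n = 6 each). Its 2 to 37 fragments per mouse leave its level imprecise, and in a fit that kept all genes its difference of 0.79 had a limma adjusted p of 0.0804.

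Among the zinc finger factors, Klf6 rose and Egr1 did not pass the test. Klf6 (ENSMUSG00000000078, chr13:5861482-5870394, plus strand), a factor known from hepatocytes and from stellate cell activation, read 2.29, 2.54 and 2.94 FPKM in NC and 2.62, 4.52 and 5.37 FPKM in HFD. In 5 of the 6 HFD mice Klf6 lay above all NC mice. Its log2 difference was 0.69 (SE 0.15, limma adjusted p = 0.0051), or 1.62-fold. Egr1 (ENSMUSG00000038418), the best known target of MAP kinase and serum response factor signalling in this group, read 3.16, 3.73 and 6.11 FPKM in NC and 2.43, 3.07 and 5.43 FPKM in HFD. Egr1 was thus the sole tested member with a negative difference, -0.31 with an interval of -0.72 to 0.11 (limma adjusted p = 0.287), and 5 of 6 HFD mice lay below all NC mice.

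The remaining pair are short genes named for their early response. Ier3 (ENSMUSG00000003541, chr17:35821684-35822923, plus strand), which modulates cell survival under NF-kappaB and ERK signals, read 0.355, 0.716 and 0.937 FPKM in NC and 0.859, 1.27 and 1.38 FPKM in HFD. Ier3 differed by 0.79 (SE 0.21, limma adjusted p = 0.0196), with 5 of 6 HFD mice above all NC mice, from 7 to 33 fragments per mouse. It was called in 20 of 21 alternatives, whose adjusted p ran from 0.00314 to 0.0552. Ier2 (ENSMUSG00000053560, chr8:84661331-84662852, minus strand), a nuclear protein of the early response, read 9.85, 13.5 and 17.0 FPKM in NC and 11.7, 15.0 and 19.3 FPKM in HFD. Its difference of 0.21 (95% interval -0.12 to 0.54, limma adjusted p = 0.355) did not pass. Ier2, Junb and Jund share chromosome 8, and of these Junb alone was called.

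**Figure D2:**
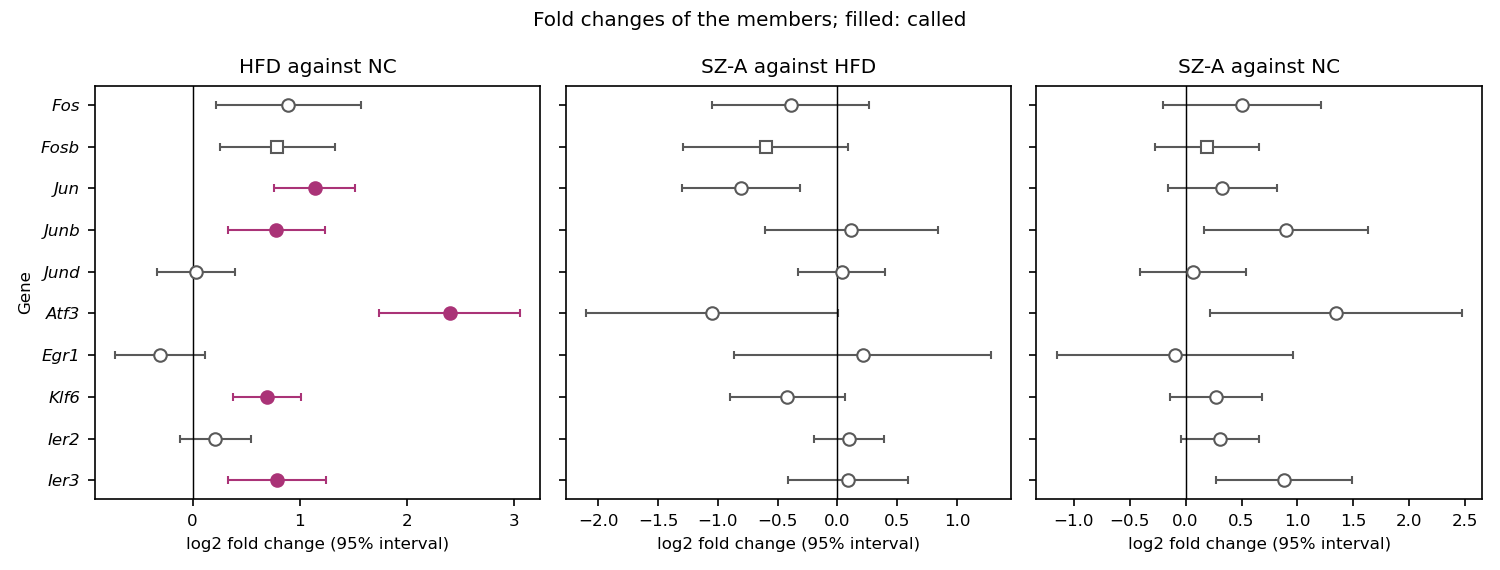
Log2 fold change (horizontal axis) of each member (vertical axis) in the 3 comparisons, from limma on log2(FPKM + 0.1), with 95% intervals; filled points were called, and squares mark Fosb, fitted with all genes kept. In HFD against NC 5 members are filled, from 0.69 for Klf6 to 2.40 for Atf3, and in the other panels none is.

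Cell type markers moved with the same comparison. Alb and the other 9 hepatocyte markers were present in every mouse, with a summed level of 42849, 46626 and 64556 FPKM (lowest, median, highest) in NC and 28462, 33700 and 47889 FPKM in HFD, and 3 of 10, Apoa1, Tat and Cps1, were called lower. The 12 Kupffer cell and macrophage markers, led in level by Lyz2, summed to 234, 300 and 415 FPKM in NC and 394, 515 and 630 FPKM in HFD, and 7 of 12 were called higher. The neutrophil markers summed to 2.38, 6.30 and 8.09 FPKM in NC and 10.8, 16.7 and 22.2 FPKM in HFD. Of these 12 only 4 were tested, and S100a8 and S100a9 were called higher. Ly6g, Mmp8, Ngp, Ltf and Camp were at 0 in some of the 18 mice. The stellate cell markers rose in 7 of 11 tested, Col1a1 and Col3a1 among them, with sums of 108, 134 and 140 FPKM in NC and 138, 176 and 215 FPKM in HFD. Of the 12 endothelial markers Lyve1 alone was called. Only 2 of 8 cholangiocyte markers were tested, 1 higher and 1 lower, both with an unadjusted limma p under 0.05 and neither called. None of the 5 red blood cell markers tested was called. Over all genes 20.2% were called in this comparison. In whole liver, a different number of cells of a type and a different amount of RNA per cell cannot be told apart. The part of these cells in the members' differences was not tested.

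SZ-A livers were next compared with HFD livers, the comparison that asks what the alkaloids changed in fatty liver. None of the 9 tested members was called, and Jun alone had an unadjusted p under 0.05. Among all genes, limma called 15, or 0.147%, and 14.8% had an unadjusted p under 0.05. The study, using DESeq2 at the same thresholds, reported many more genes for this comparison. The absence of calls here thus holds for limma on FPKM. Atf3, Jun, Klf6, Fos and Fosb, all of which averaged more in HFD than in NC, averaged less in SZ-A than in HFD. Junb, Ier3 and Ier2 also averaged more in HFD than in NC, but averaged more still in SZ-A. Of the 9 tested members, 5 had a positive and 4 a negative difference of SZ-A from HFD. Both comparisons share the 6 HFD mice, so opposite signs in them are not independent.

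Jun showed the clearest shift of the members. SZ-A mice read 5.28, 9.77 and 15.1 FPKM against 10.8, 16.6 and 21.1 in HFD, and all 6 lay below the HFD mean, 4 of them below every HFD mouse. The log2 difference of Jun was -0.81 (SE 0.23), a fold of 0.571 with a 95% interval of 0.406 to 0.803. The unadjusted p from limma was 0.00361 and the adjusted p 0.139, so Jun was not called. Of the 21 alternatives, Jun passed in 1, the scaling of all mice to the same FPKM sum (-0.98, limma adjusted p = 0.0473). Under this scaling the median of all genes went from 0.03 to -0.15, and relative to the median Jun differed by -0.83 before and -0.84 after it.

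Atf3 was the most uneven. The SZ-A mice read 0.565, 1.78 and 7.14 FPKM, and 4 of 6 lay below all HFD mice while 1, SZ-A5, lay above them all. The log2 difference of Atf3 was -1.05 (SE 0.49) with an interval of -2.11 to 0.0015 and a limma adjusted p of 0.338. Without SZ-A5 it was -1.44 with an adjusted p of 0.105. Klf6 read 1.90, 3.16 and 5.33 FPKM in SZ-A, a difference of -0.42 (limma adjusted p = 0.403). Fos read 0.644, 1.04 and 2.36 FPKM, a difference of -0.39 (limma adjusted p = 0.591), and Fosb averaged 0.0846 ± 0.0700 FPKM (SD, n = 6).

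The other members were centred near the HFD level. Junb read 7.21, 21.2 and 37.2 FPKM in SZ-A, and its difference of 0.12 had an interval of -0.61 to 0.84. Egr1 read 1.36, 3.52 and 13.6 FPKM, with a difference of 0.21 and an interval of -0.86 to 1.28, the widest of the 9. Ier3 read 0.831, 1.30 and 2.63 FPKM, Ier2 12.8, 16.4 and 20.5 FPKM and Jund 18.9, 20.8 and 41.1 FPKM, with differences of 0.09, 0.10 and 0.04. For Junb, Jund, Ier2 and Ier3 the sign turned negative when FPKM were scaled to the same sum, where the median of all genes fell further. For Jund and Ier2 the intervals, -0.33 to 0.40 and -0.19 to 0.39, were the narrowest in this comparison.

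Between SZ-A and HFD the macrophage markers summed to 361, 403 and 510 FPKM in SZ-A, and Cd68 alone of 12 was called lower. Neutrophil markers summed to 5.99, 9.35 and 26.4 FPKM in SZ-A, and stellate cell markers to 129, 167 and 178 FPKM, with no call in either list. No hepatocyte, endothelial, cholangiocyte or red blood cell marker was called. Over all genes 0.147% were called in this comparison. The log2 difference was positive in 10 of 10 hepatocyte and 4 of 5 red blood cell markers tested. It was negative in 10 of 12 macrophage, 4 of 4 neutrophil, 9 of 11 stellate cell, 8 of 12 endothelial and 2 of 2 cholangiocyte markers. In that order, 5, 3, 3, 0, 4, 3 and 1 had an unadjusted limma p under 0.05, as did 14.8% of all genes. In SZ-A5 the macrophage, neutrophil and cholangiocyte sums, 510, 26.4 and 30.4 FPKM, were the highest of SZ-A. Its endothelial sum, 94.5 FPKM, was the lowest, and its stellate cell, hepatocyte and red blood cell sums lay between. The part of these cells in the levels of Atf3 and Jun was not tested.

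SZ-A livers against NC livers ask how far treated livers stood from lean ones. None of the 9 members was called, where 9.6% of all genes were, and Ier3, Junb and Atf3 had an unadjusted p under 0.05, as did 25.5% of all genes. Ier3 was higher in 6 of 6 SZ-A mice than the NC mean, with a difference of 0.88 (SE 0.28, limma adjusted p = 0.0661), and it was called in 3 of 21 alternatives, whose adjusted p ran from 0.0148 to 0.171. Atf3 differed by 1.34 (SE 0.52, limma adjusted p = 0.123), with 4 SZ-A mice above all NC mice, and was called in 2 of 21 alternatives (0.0368 to 0.307). Junb differed by 0.90 (SE 0.34, limma adjusted p = 0.115), and by 1.16 (adjusted p = 0.0221) without SZ-A2, its lowest SZ-A mouse at 7.21 FPKM. Jun differed from NC by 0.33 (95% interval -0.16 to 0.82) and Klf6 by 0.27 (-0.13 to 0.68). Ier2, Fos, Jund and Egr1 differed by 0.31, 0.50, 0.07 and -0.09. The direct differences of HFD from NC for Jun, 1.14, and of SZ-A from NC, 0.33, share the NC mice. Of the markers, Cd68, C1qb, S100a8, S100a9, Rgs5 and Col3a1 were called higher and Cps1 and Sox9 lower in SZ-A than in NC, and the part of these cells in the differences was not tested.

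In SZ-A, all 9 tested members varied more among mice than the median gene did. The SD of Egr1 on the log2 scale was 1.32, higher than in 99.0% of the 10216 genes, and that of Atf3 was 1.26, higher than in 98.9%. Junb followed at 0.84, higher than in 97.3%, and the median gene had 0.189. The highest SZ-A mouse held 9.95 times the Egr1 level of the lowest, 12.7 times its Atf3 and 5.16 times its Junb. In NC, Atf3 and Fos had SDs of 0.69 and 0.63, above 95.7% and 94.5% of genes, while Klf6 had 0.13, above 17.2%. In HFD, Fos and Atf3 were at 0.55 and 0.46, above 93.5% and 90.4% of genes, and Jund at 0.16, above 40.0%. The lowest fragment number in any mouse was 20 for Fos, 7 for Ier3, 11 for Atf3, 111 for Egr1 and 254 for Junb, and the part of counting error in the spread was not tested.

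The mouse SZ-A5 stood apart in these genes. It was the highest of SZ-A in 7 of the 9 tested members and the highest of all 18 mice in 5. The exceptions were Egr1, highest in SZ-A3, and Ier2, highest in SZ-A4. HFD5 was the lowest of HFD in 5 members. Its macrophage, endothelial and hepatocyte marker sums, 630, 112 and 47889 FPKM, were the highest of HFD, the macrophage sum also of the 18 mice. Its neutrophil, stellate cell and cholangiocyte sums, 10.8, 138 and 21.9 FPKM, were the lowest of HFD. The part of these cells in its levels was not tested. NC1 and HFD3 were the highest of their groups in 4 members each. SZ-A1 was the lowest of SZ-A in 4.

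**Figure D3:**
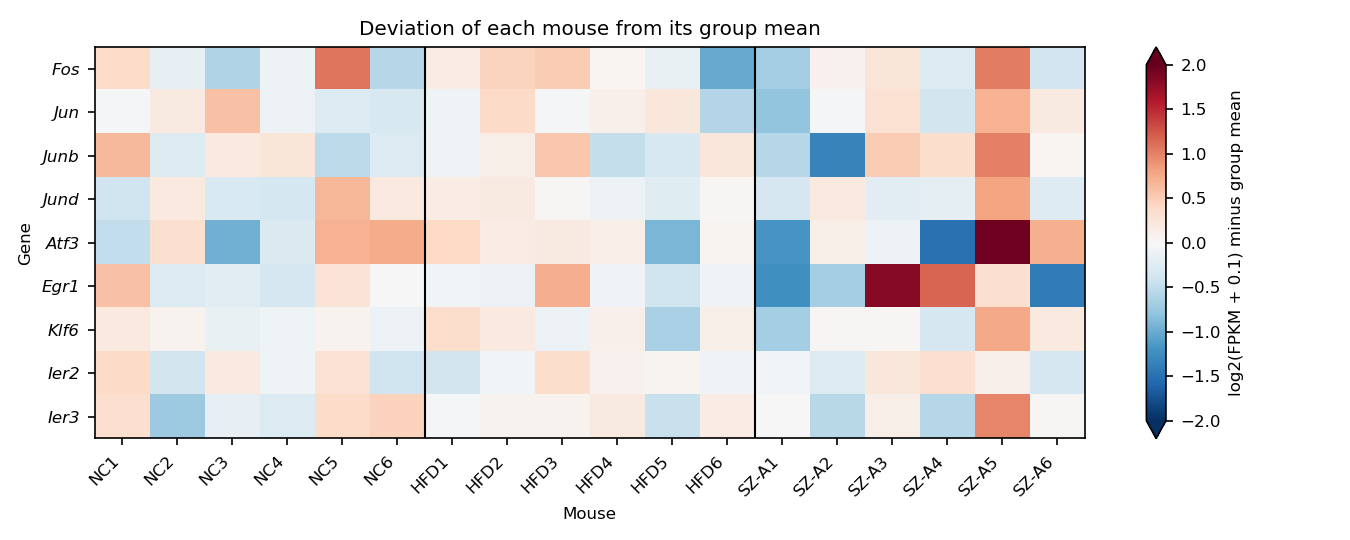
Deviation of each mouse (columns, grouped by group) from its group mean in each tested member (rows), in log2(FPKM + 0.1), red above and blue below. SZ-A5 is above its group mean in all 9 rows, and Egr1 splits the SZ-A group into SZ-A3, SZ-A4 and SZ-A5 above and SZ-A1, SZ-A2 and SZ-A6 below.

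Whether mice ranked alike in different members was asked with the values centred on their group means, over 18 mice and 36 pairs of members. Pearson's r was positive in 31 of 36 pairs, from -0.33 to 0.80 with a median of 0.39. A 2-sided permutation test within groups, adjusted over the 36 pairs, passed for 3. Atf3 and Klf6 had r = 0.80 (permutation p = 0.00098, adjusted 0.0227) and rho = 0.64 (permutation p = 0.00826, adjusted 0.0991), and r = 0.68 without SZ-A4 and SZ-A5. By group their r was 0.11 for NC, 0.93 for HFD and 0.95 for SZ-A, over 6 mice each. Jund and Atf3 had r = 0.77 (permutation p = 0.00126, adjusted 0.0227) and rho = 0.72 (permutation p = 0.00789, adjusted 0.0991), and r = 0.60 without NC5 and SZ-A5. Egr1 and Ier2 had r = 0.63 (permutation p = 0.00255, adjusted 0.0306) and rho = 0.62 (permutation p = 0.00763, adjusted 0.0991), and r = 0.60 without SZ-A3 and SZ-A6. No pair passed by rho after adjustment, and none passed by r when HFD5 or SZ-A5 was left out. The number of pairs that passed thus depends on those mice. Because the adjustment is joint over the 36 pairs, this does not show that each pair does.

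The genes whose levels ran most like each member over the 18 mice, group differences included, are given as a description among genes of at least 1 FPKM. For Atf3 they were Csf1, the macrophage growth factor (Pearson r = 0.92), Ifi27l2b (0.91) and Fuca2 (0.91). For Jun they were Anxa2, Capg and Ccl2, the chemokine that draws monocytes, all at 0.88. For Klf6 they were Ly6d (0.94), Uap1l1 (0.93) and Tmem43 (0.92), and Ly6d also stood second for Fosb (0.86), after Plscr4 (0.86) and before Anxa5 (0.85). Ier3 ran with S100a8 (0.88), a calcium-binding protein of neutrophils and monocytes, and with Clu (0.85) and Slc41a2 (0.85). Fos ran with Dnajc10 (0.87), the chemokine Ccl6 (0.85) and Shkbp1 (0.82), and Junb with Pter (0.82), the pericyte and stellate cell marker Rgs5 (0.81) and Irf2bpl (0.80). The highest r was lower for the last 3 members. Jund ran with Bcl10 (0.77), Rhod (0.74) and Pithd1 (0.74), Egr1 with Tmem47 (0.75), Cul1 (0.73) and Ulk1 (0.65), and Ier2 with Armc5 (0.79), Tomm34 (0.78) and Pid1 (0.77).

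Other immediate early genes were called in HFD against NC about as often as all genes. Of 40 listed, 31 were tested, 5 were called higher and 2 lower, or 22.6% against 20.2% over all genes, with a median of 0.23. Ier5, a regulator of heat shock factor, rose from 1.94 ± 0.184 FPKM in NC to 3.69 ± 0.592 in HFD (SD, n = 6 each), a log2 difference of 0.88 (limma adjusted p = 0.000307). Maff, a small Maf protein, rose from 1.93 ± 0.740 to 4.99 ± 1.29 FPKM (1.38, limma adjusted p = 0.002), and Socs3, the feedback inhibitor of cytokine signalling, by 0.87 (limma adjusted p = 0.0136). Mcl1, an anti-apoptotic protein, rose from 30.7 ± 3.85 to 43.6 ± 3.04 FPKM (0.51, limma adjusted p = 0.00201). Gadd45b, a stress sensor of MAP kinase signalling, went the other way and fell from 8.83 ± 2.43 to 3.74 ± 1.30 FPKM (-1.23, limma adjusted p = 0.00235). In SZ-A against HFD none of the 31 was called, against 0.147% of all genes. Among the 31, 4 had an unadjusted p under 0.05, against 14.8% of all genes. Ier5 had the smallest p, with a difference of -0.39 (limma adjusted p = 0.160), and Btg2, an antiproliferative gene, followed at -0.76 (limma adjusted p = 0.183). In SZ-A against NC 4 were called higher and 2 lower, or 19.4% against 9.6% over all genes, and 4 to 7 in all were called with a mouse left out. Maff was higher by 1.69 (limma adjusted p = 0.0038), Ier5 by 0.49 (0.00993), Mcl1 by 0.44 (0.0158) and Socs3 by 1.11 (0.0378), while Ctgf, a matricellular protein, was lower by 1.24 on the log2 scale, from 6.09 ± 1.78 to 2.71 ± 1.495 FPKM (limma adjusted p = 0.019).

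The partners that pair with Fos, Jun and ATF proteins were also called at about the rate of all genes. Of 23 listed, 19 were tested, and in HFD against NC 2 were called higher and 2 lower, or 21.1% against 20.2% over all genes. Atf5, a bZIP factor abundant in liver, fell from 315 ± 74.1 to 113 ± 31.5 FPKM (-1.49, limma adjusted p = 0.000266), opposite to Atf3. Creb3l3, a liver factor of lipid metabolism, fell by 0.29 (limma adjusted p = 0.0396), and Maff and Mafk (0.48, limma adjusted p = 0.00582) rose. In SZ-A against HFD none was called, against 0.147% of all genes, and 14.8% of all genes had an unadjusted p under 0.05. Here 2 partners had such a p, Atf1 (0.20, limma adjusted p = 0.185) and Creb3l3 (0.25, adjusted p = 0.228). Cebpb, a C/EBP factor of the acute phase response, was called in SZ-A against NC, with Maff, at 160 ± 33.0 against 108 ± 20.3 FPKM (0.57, limma adjusted p = 0.0301).

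The kinases and factors upstream of immediate early genes had 4 calls among 23 tested of 25 in HFD against NC, or 17.4% against 20.2% over all genes. Leaving out NC1, NC3, HFD3 or HFD4 left 2 calls. Mapkapk2, a target kinase of p38, and Elk4, a partner of serum response factor, were lower by 0.45 and 0.41 on the log2 scale (limma adjusted p = 0.00312 and 0.00826). Map2k3, which activates p38, and Rps6ka1, a kinase downstream of ERK, were higher by 0.41 and 0.63 (limma adjusted p = 0.0309 and 0.0338). None was called in SZ-A against HFD, against 0.147% of all genes. There 5 had an unadjusted p under 0.05, against 14.8% of all genes, led by Mapk3 (-0.24, limma adjusted p = 0.160) and Rps6ka1 (-0.55, adjusted p = 0.1996). In SZ-A against NC Map2k3 was called higher by 0.41 (0.0236) and Elk4 lower by 0.35 on the log2 scale (0.0355, both limma adjusted p).

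The heat shock genes, induced by unfolded protein in the cytosol, had no call in any comparison among 15 tested, and 1 had an unadjusted p under 0.05 in each. Their median was -0.12 in HFD against NC, 0.32 in SZ-A against HFD, where all 15 had a positive difference, and 0.30 in SZ-A against NC. All genes had medians of -0.03, 0.03 and -0.01. In the same order, 20.2%, 0.147% and 9.6% of all genes were called, and 34.8%, 14.8% and 25.5% had an unadjusted p under 0.05. In HFD against NC the smallest p belonged to Hsf2, a heat shock factor (-0.35, limma adjusted p = 0.0784), and Hspe1, a mitochondrial chaperonin (-0.22, adjusted p = 0.328). In SZ-A against HFD they were Hsf2 (0.34, limma adjusted p = 0.197) and Hspd1 (0.23, adjusted p = 0.381), and in SZ-A against NC Cryab (0.39, adjusted p = 0.150) and Dnaja1 (0.47, adjusted p = 0.203).

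The next list holds ATF4, the factor of amino acid and endoplasmic reticulum stress that can induce Atf3, and its targets. Chac1, which degrades glutathione, rose from 0.376 ± 0.186 to 4.41 ± 1.58 FPKM in HFD (3.26, limma adjusted p = 2.78e-05). Asns, asparagine synthetase, fell from 4.33 ± 1.14 to 0.326 ± 0.223 FPKM (-3.52, limma adjusted p = 4.35e-05). With Atf5 these were the 3 calls among 11 tested of 16 listed, or 27.3% against 20.2% over all genes. In SZ-A against HFD none of the 11 was called or had an unadjusted p under 0.05, against 0.147% and 14.8% of all genes. Atf5 (0.57, limma adjusted p = 0.396) and Atf4 itself (0.23, adjusted p = 0.595) came nearest. Against NC, Chac1 was higher by 3.12 and Asns lower by 2.86 on the log2 scale in SZ-A (limma adjusted p = 0.00406 and 0.00231).

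**Figure D4:**
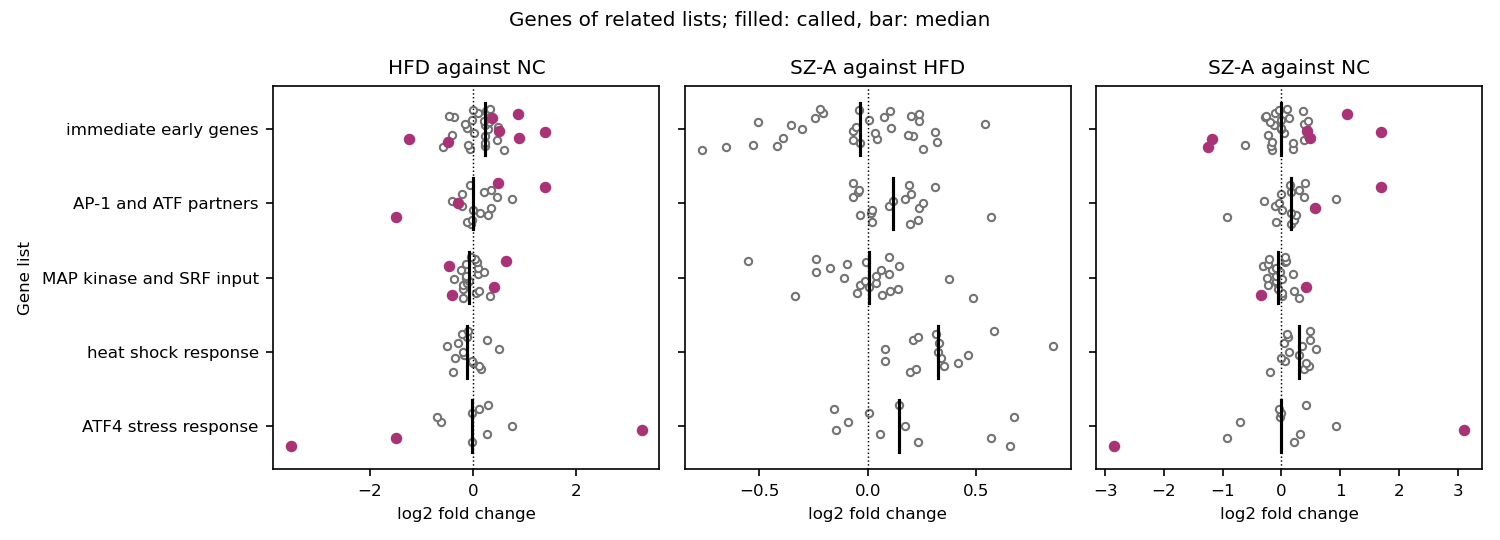
Log2 fold change (horizontal axis) of every tested gene of the 5 related lists (rows) in the 3 comparisons, with called genes filled and a bar at each median. Calls fall on both sides of 0 in HFD against NC, none appears in SZ-A against HFD, and the 15 heat shock genes lie to the right of 0 there.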

How the data were processed

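Liver RNA of 18 mice was measured. The authors isolated RNA with TRIzol, selected it on poly-T beads and sequenced 150 bp paired-end reads on a NovaSeq. Per the labels, HISAT2 2.0.5 and featureCounts 1.5.0-p3 were used with mm10. The authors deposited FPKM per gene. Depth was worked back from FPKM and gene length, which gave whole fragments for 100% of values (tolerance 0.05). The authors tested with DESeq2. Because FPKM are not counts, limma was used here, with voom on the fragments as an alternative, and DESeq2 was not repeated.

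Groups came from titles. Genes with a mean of at least 1 FPKM were tested with limma 3.58.1 in R 4.3.3 (lmFit, eBayes with trend) on log2(FPKM + 0.1), each comparison on its own 2 groups of separate mice. Python 3.11.15 with pandas 2.3.3, scipy 1.17.1 and matplotlib 3.10.9 did the rest. Correlations used 100000 permutations. The scripts were tested on simulated data. The members, gene lists and marker lists were chosen with earlier results of these data known. Named were all members, up to 5 called genes of each list by adjusted p or, with none called, the 2 with the smallest p, and the 3 genes most like each member. Promoters came from RefSeq, exons from GENCODE. Alternatives are listed in the closing section.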

Additional observations from a re-analysis of the deposited data

Results flagged for a closer look

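The 10 members in each of the 3 groups gave 30 sets of 6 values. In 4 sets, 1 mouse stood away from the other 5 by more than Dixon's critical value of 0.625, where chance would give about 1.5 (a share of 0.05). The sets reuse the same 18 mice and hold FPKM on the linear scale, so that chance number is a rough guide only. Egr1 read 5.43 FPKM in HFD3, and 2.43 to 3.10 FPKM in the other HFD mice. Atf3 read 1.95 FPKM in HFD5, the only low value among these, and 3.95 to 5.01 FPKM in the others. Atf3 read 7.14 FPKM in SZ-A5, and 0.565 to 2.97 FPKM in the other SZ-A mice. Ier3 read 2.63 FPKM in the same SZ-A5, and 0.831 to 1.40 FPKM in the others. The cause was not tested.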

How the results depend on the processing

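Tried in place of the settings above were a pseudocount of 1 or 0.01, all genes kept, scaling every mouse to the same FPKM sum, median-ratio scaling, all 18 mice in one fit, the replicate number as a block, voom on fragments, sample weights and each mouse left out. Members called in HFD against NC numbered 5 to 6 when each mouse was left out. They numbered 4 with all genes kept, with all 18 mice in one fit and with the replicate block. They numbered 6 after scaling to the same sum, by voom and with sample weights. In SZ-A against HFD, 1 member (Jun) was called after scaling to the same sum. In SZ-A against NC, 1 was called with all 18 mice in one fit (Ier3) and 2 with sample weights (Atf3 and Ier3), and 0 to 1 when each mouse was left out (Junb without SZ-A2). Replicate numbers did not pair the mice: the correlation of same-numbered mice was -0.12 to 0.29, and a mouse correlated best with its own number in 1, 1 and 3 of 6. With the replicate block, 2 members were called in SZ-A against NC (Atf3, limma adjusted p = 0.0368, and Ier3, 0.026), Ier3 lost its call in HFD against NC (0.0552), and 0 genes were called in SZ-A against HFD.

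All genes called in SZ-A against HFD, 15, became 0 without a filter, 216 after scaling to the same sum, 35 with all 18 mice, 32 by voom, 233 with sample weights and 2 to 49 with a mouse left out: 49 without SZ-A2, 45 without HFD5, 31 without SZ-A5, and 2 to 6 without SZ-A6, SZ-A4, SZ-A3, SZ-A1, HFD4, HFD2 or HFD1. The 981 genes called in SZ-A against NC became 564 without a filter, 1682 with sample weights and 601 to 1179 with a mouse left out (601 without SZ-A3, 629 without SZ-A6), and the 2062 of HFD against NC 1646 to 2145. Rescaling moved the share of calls that were higher in HFD than in NC from 53.0% to 86.3%. Pairs of members past the test numbered 0 by Spearman and 0 to 5 with a mouse left out (0 without HFD5 or SZ-A5, 5 without NC1).

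Differences that changed sign were -0.0607 for Junb, -0.141 for Jund, -0.0765 for Ier2 and -0.0761 for Ier3 in SZ-A against HFD after rescaling, -0.10 for Jund with sample weights, and 0.34 for Egr1 in SZ-A against NC with sample weights. With a mouse left out, signs changed for Jund in HFD against NC (-0.0498 to 0.165), for Junb (-0.0858 to 0.385), Jund (-0.12 to 0.10), Egr1 (-0.15 to 0.49) and Ier3 (-0.11 to 0.21) in SZ-A against HFD, and for Jund (-0.0890 to 0.201) and Egr1 (-0.46 to 0.19) in SZ-A against NC. None of these was a call. The causes were not tested. Few fragments limit Fosb, Ier3 and Fos.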
